A study of Homo sapiens with 6 samples.

Results

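The ribosomal protein genes are the protein-coding genes of GENCODE on the GRCh37 build of the human genome whose symbols begin with RPL or RPS and a number, together with RPLP0, RPLP1, RPLP2 and RPSA. Symbols of the RPS6K kinases and symbols in which an L follows the number, such as RPL39L, were left out. The rule gave 83 of 20162 protein-coding genes, and no peak was used to choose them. Of the 83 genes, 46 carry symbols of the large subunit and 33 of the small subunit as genes for 1 ribosomal protein each. The remaining members are the 3 read-through genes RPL17-C18orf32, RPL36A-HNRNPH2 and RPS10-NUDT3, whose transcripts run on into the next gene, and RPS19BP1, which does not code for a ribosomal protein.

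The data come from chromatin immunoprecipitation sequencing (ChIP-seq) of nuclear extracts with an anti-PAI-1 antibody. PAI-1, plasminogen activator inhibitor-1, is best known outside the cell as a brake on fibrinolysis, and the study asked where its nuclear fraction meets DNA. RT112 and UM-UC-3 are established human bladder cancer cell lines, for which the labels name no treatment, and each had 2 biological replicates of the PAI-1 ChIP. The 2 input libraries, 1 for each cell line, were not analysed here. Peak lists of the 4 ChIP libraries held between 60227 and 114094 distinct peaks, and 38.2% of the RT112 replicate 1 peaks overlapped a peak of RT112 replicate 2, against 61.3% to 74.9% in the other 3 libraries.

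Ribosomal proteins assemble with ribosomal RNA in the nucleolus into the small subunit, which decodes the messenger RNA, and the large subunit, which forms the peptide bond. Their genes are among the most strongly transcribed in proliferating cells, and their short first exons begin at a run of pyrimidines that places their translation under control of the growth regulator mTOR. Several proteins of the group have further roles: free RPL5 and RPL11 hold back the ubiquitin ligase MDM2, and loss of 1 gene copy of RPS19, RPS24 or RPS26 causes Diamond-Blackfan anaemia.

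The start sites show what these genes share outside the naming rule. A C within 5 bases of the start site, preceded by a purine or lying at the start itself, that opened a run of at least 5 pyrimidines, read on the strand of the gene, was found in 52 of the 66 members that matched the RefSeq promoter table by symbol (78.8%). Among 15776 other protein-coding genes of that table the share was 21.1%. The table did not match 17 members. Start sites of 5 members are printed below as examples of this common promoter form, from RefSeq on the build GRCh38.p14, with 10 bases before the start, 20 bases from it, and the pyrimidines from that C onward in capitals. In RPL13A and RPS19 further pyrimidines lie directly before the C. They are chr2:101002279-101002308 on the plus strand for RPL31, chr6:33272065-33272094 on the plus strand for RPS18, chr9:19380217-19380246 on the minus strand for RPS6, chr19:49487598-49487627 on the plus strand for RPL13A and chr19:41860245-41860274 on the plus strand for RPS19.
RPL31: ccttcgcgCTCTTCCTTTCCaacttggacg
RPS18: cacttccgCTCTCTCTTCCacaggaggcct
RPS6: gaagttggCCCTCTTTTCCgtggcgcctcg
RPL13A: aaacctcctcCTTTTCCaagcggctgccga
RPS19: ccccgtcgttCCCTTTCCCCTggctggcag

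No PAI-1 peak lay at the start of any member as annotated in GENCODE. The RefSeq starts printed above, which are on the other build, were not themselves searched for peaks. In the window from 250 bp before to 50 bp after the transcription start site (TSS), 0 of 83 members had a peak in each of the 4 libraries. Over all protein-coding genes that window held a peak in 0.551% and 0.263% of genes in RT112 replicates 1 and 2, and in 0.565% and 0.575% in UM-UC-3 replicates 1 and 2. Such shares correspond to fewer than 1 gene in 83, so a count of 0 does not separate the members from other genes.

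Peaks in or near the ribosomal protein genes were counted first over the gene window, meaning the whole gene and 3 kb on both sides. In RT112, 16 of 83 members (19.3%) had such a peak in replicate 1, where the share over all protein-coding genes was 53.9%, and 11 members (13.3%) in replicate 2, where that share was 44.5%. In UM-UC-3, 17 members (20.5%) had a peak in replicate 1 and 17 in replicate 2, with 58.6% and 59.2% of all protein-coding genes. All 4 libraries therefore had a peak at a smaller share of ribosomal protein genes than of genes at large. A peak in both replicates was found for 8 members in RT112 (9.64%, against 40.4% of all genes) and for 13 in UM-UC-3 (15.7%, against 53.7%).

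Ribosomal protein genes are short, and a short gene has less room for a peak. Their median length was 5.55 kb, against 27.4 kb for other protein-coding genes, while the median GC content of the gene and its flanks was 47.2% and 44.8%. Each member was therefore set beside the other genes in the same of 10 classes of length and 10 classes of GC content. The mean share with a peak over these classes was 29.4% and 22.2% in RT112 replicates 1 and 2 and 33.6% and 34.3% in UM-UC-3 replicates 1 and 2. The share of members divided by that of the matched genes was 0.655 and 0.598 for the RT112 libraries, 0.610 and 0.597 for those of UM-UC-3. Matched on length alone, the shares of other genes were 25.8%, 18.99%, 30.5% and 31.3% in the same order, and on GC content alone 49.8%, 40.7%, 53.8% and 54.5%. Length thus moved the reference further than GC content did, and the members lay below it under both. The comparison is a description of 4 libraries over 1 set of genes and carries no test.

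**Figure D1:**
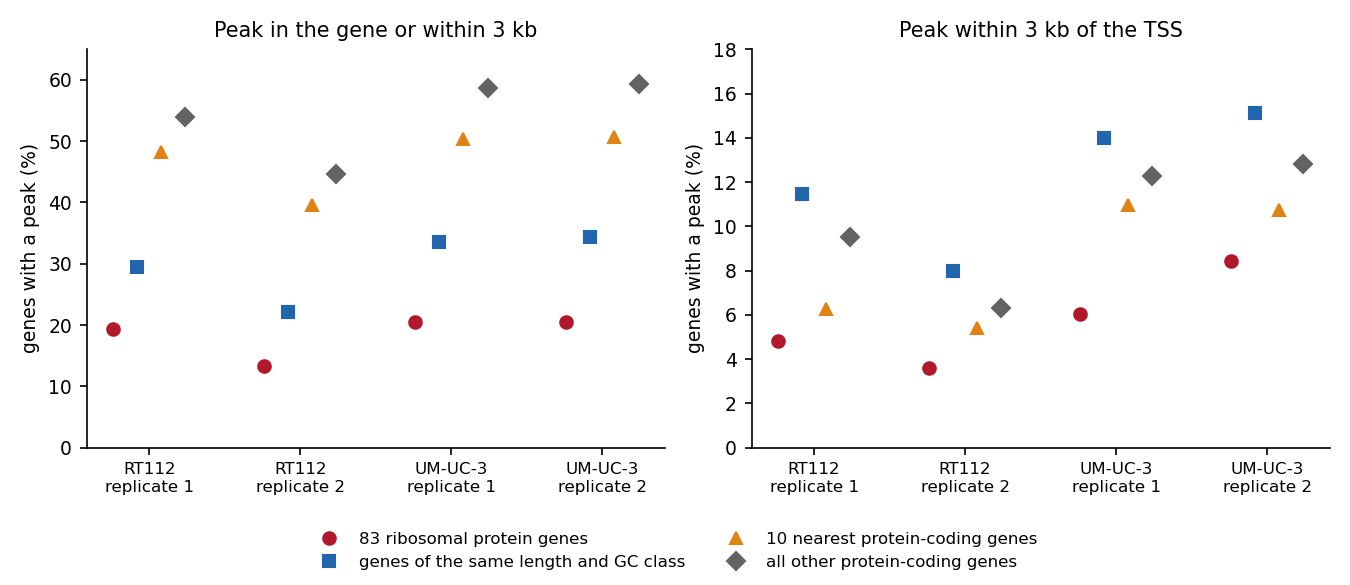
Percentage of genes with a PAI-1 peak (y axis) in each of the 4 ChIP libraries (x axis), in the gene window of 3 kb flanks (left) and within 3 kb of the TSS (right), with a point for each set of genes and no error bars because each point is 1 library. The 83 ribosomal protein genes lie lowest in every library in both panels, at 13.3% to 20.5% on the left and 3.61% to 8.43% on the right.

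The difference from other genes was not the same at every gene length. Among the 21 members longer than 12 kb, 42.9% and 38.1% had a peak in RT112 replicates 1 and 2 and 38.1% and 33.3% in UM-UC-3 replicates 1 and 2. Other genes of that length class, which also holds the very long genes, had a peak in 68.9%, 58.1%, 73.9% and 74.6%. Those 21 members include RPS4Y1 and RPS4Y2 on chromosome Y, which had no peak in any library. Their nearest RT112 peaks lay 10550 and 9514 kb from the TSS. Whether the cells carry chromosome Y is not given by the labels. For the 16 members between 6 and 12 kb the shares were 25%, 12.5%, 25% and 31.3%, close to the 23.9%, 16.4%, 27.8% and 28.7% of other genes. In the 21 members between 4 and 6 kb they were 4.76%, 0.0%, 19.1% and 19.1%, against 16.3%, 10.02%, 21.2% and 21.5%. In the 25 members of up to 4 kb, 2, 1, 1 and 1 genes had a peak, or 8%, 4%, 4% and 4%, against 13.8%, 10.2%, 17.8% and 18.4% of other genes. Counted per length, the merged windows of the members held 17.3, 15.3, 15.3 and 19.3 peaks per Mb in the order of the libraries. The windows of other genes held 32.03, 19.95, 36.3 and 38.0 peaks per Mb.

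**Figure D2:**
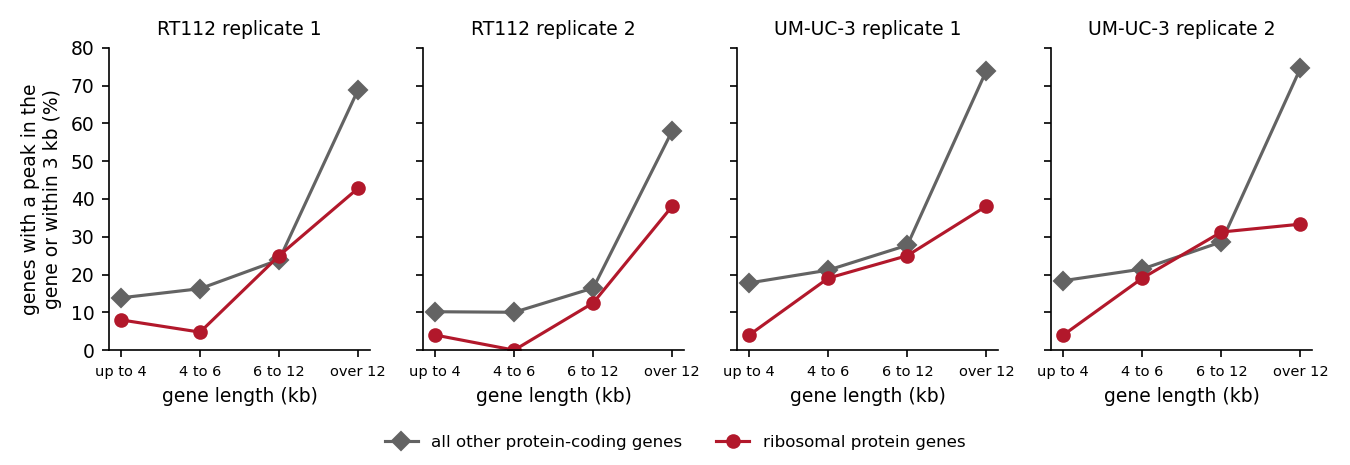
Percentage of genes with a gene-window peak (y axis) by gene length in kb (x axis, 4 classes) in each of the 4 libraries, for ribosomal protein genes (circles) and all other protein-coding genes (diamonds). The lines lie near each other between 6 and 12 kb and are farthest apart over 12 kb, where 33.3% to 42.9% of the members had a peak.

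Around the TSS, where a window of 3 kb on both sides has the same size for every gene, fewer members still had a peak. RT112 had 4 of 83 such members (4.82%) in replicate 1 and 3 (3.61%) in replicate 2. UM-UC-3 had 5 (6.02%) in replicate 1 and 7 (8.43%) in replicate 2. Over all protein-coding genes the shares were 9.52%, 6.3%, 12.2% and 12.8%. Genes in the same classes of GC content around the TSS had a peak in 9.54%, 6.35%, 12.1% and 12.5%, and genes of the same length and GC class in 11.5%, 7.99%, 13.98% and 15.1%. The GC content around the TSS itself was alike, with medians of 48.7% in the members and 48.5% in other genes. Both replicates had such a peak at 1 member in RT112 (1.20%, against 4.12% of all genes) and at 3 members in UM-UC-3 (3.61%, against 9.15%). These counts are small, and 1 gene more or less is 1.20% of the members.

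The surroundings of the members were also lower than the genome in these peaks. Their 10 nearest other protein-coding genes had a TSS peak in 6.27%, 5.42%, 11.0% and 10.7% of cases. The members lay below these neighbours too, with mean ratios of 0.718 in RT112 and 0.668 in UM-UC-3, which are nearer to 1 than the ratios to genes of the same length and GC class (0.436 ± 0.0226 and 0.494 ± 0.0893, SD, n = 2). Over the whole gene the neighbours had a peak in 48.3%, 39.5%, 50.4% and 50.6%, also below the 54.02%, 44.6%, 58.7% and 59.4% of other genes.

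Reads from repeated sequence can be ambiguous in mapping, and ribosomal protein genes have many processed copies elsewhere in the genome. Of the words of 32 bases in the TSS windows of the members, a mean of 82.1% occurred once in the genome (median 85.1%). In the TSS windows of 402 other genes, taken as every 50th gene, the mean was 86.4% and the median 91.8%. The paired reads of the study were longer than 32 bases, so these values are not the shares of its reads that map once. The part of this difference in the shares of genes with a peak was not tested.

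The distance from the TSS to the nearest peak of any kind gave the same order. Its median was 25.6 kb for the members and 14.96 kb for other genes in RT112 replicate 1, and 28.6 kb and 22.7 kb in RT112 replicate 2. In UM-UC-3 it was 19.7 kb in both replicates for the members, against 12.4 kb and 11.8 kb. Within 10 kb of the TSS, 22.9%, 14.5%, 22.9% and 30.1% of members had a peak, against 30.4%, 21.2%, 35.1% and 36.9% of their neighbours. Nearer the TSS, within 1 kb, the shares were 0.0%, 1.20%, 2.41% and 2.41% of members and 1.93%, 1.20%, 1.81% and 2.05% of neighbours. There the members lay below their neighbours in RT112 replicate 1 alone, and the member counts were 0, 1, 2 and 2. At 100 kb the shares met, at 91.6%, 83.1%, 97.6% and 97.6% of members and 92.0%, 84.5%, 96.4% and 95.8% of neighbours.

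**Figure D3:**
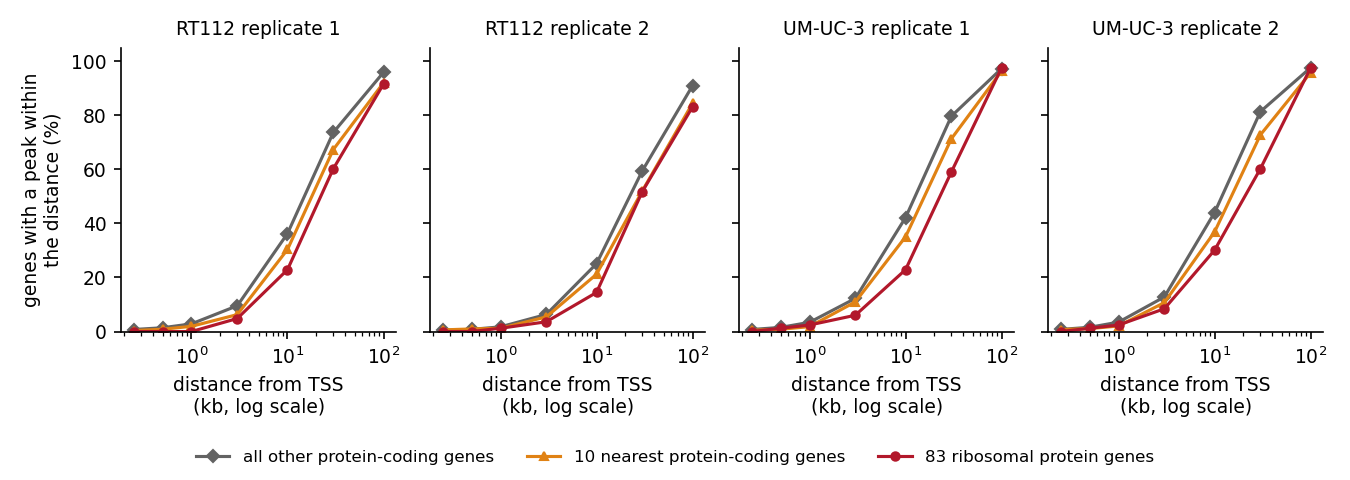
Percentage of genes with a peak within a given distance of the TSS (y axis) against that distance in kb (x axis, log scale) in each of the 4 libraries, for the 83 ribosomal protein genes (circles), their 10 nearest protein-coding genes (triangles) and all other protein-coding genes (diamonds). The line of the members lies below that of all other genes from 3 to 30 kb, and 97.6% of the members had a UM-UC-3 peak within 100 kb in either replicate.

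Peak coverage, the share of bases under a peak, was lower near the TSS of the members as well. Within 3 kb it was 0.171% and 0.0988% in RT112 replicates 1 and 2, against 0.527% and 0.315% in GC-matched genes, which are ratios of 0.324 and 0.314. In UM-UC-3 it was 0.330% and 0.448% against 0.605% and 0.631%, which are ratios of 0.546 and 0.710. From 3 to 5 kb the ratios were 0.451 and 0.688 in RT112, with 0.834 and 0.886 in UM-UC-3. With only peaks found in the other replicate, the UM-UC-3 ratios from 3 to 5 kb were 1.04 and 1.12, above 1, and those of RT112 were 0.515 and 0.564.

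The cell lines were then compared. Over the gene window the share of members with a peak averaged 16.3% ± 4.26 for RT112 and 20.5% ± 0.0 for UM-UC-3 (SD, n = 2 each). The difference of 4.22 percentage points was smaller than the SD of RT112, with p = 0.333 in a two-sided exact permutation test over libraries, which is the smallest p that 2 against 2 libraries can give. Within 3 kb of the TSS the shares were 4.22% ± 0.852 and 7.23% ± 1.70, a difference of 3.01 points that was larger than either SD (exact permutation p = 0.333). Genes at large also had peaks at a higher share in UM-UC-3, and the ratio to genes of the same length and GC class averaged 0.626 ± 0.0406 for RT112 and 0.604 ± 0.00945 for UM-UC-3 over the whole gene.

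At the level of single genes, 30 members had a gene-window peak in at least 1 library and 53 had none in any. The 30 are 36.1% of the members, against 73.7% of other genes and 53.6% of genes of the same length and GC class. Peaks in all 4 libraries were found at 5 members (6.02%, against 33.1% and 9.52%), namely RPS24, RPL31, RPL37A, RPS4X and RPS10-NUDT3. Both UM-UC-3 replicates and neither RT112 replicate had a peak at RPS15A, RPL27, RPL9, RPL34, RPS18 and RPS6, and RPS13 was the 1 gene with the opposite pattern. A further 11 members had a peak in 1 RT112 replicate but not the other, and 8 members in 1 UM-UC-3 replicate but not the other. The shares of all genes with these patterns were not computed, so the counts cannot be read as a trait of the members. Genes at large also had a peak in both replicates more often in UM-UC-3 (53.7%) than in RT112 (40.4%). By subunit, 6, 6, 8 and 8 of the 46 large-subunit genes had a peak in the order of the libraries (13.0%, 13.0%, 17.4% and 17.4%). Of the 33 small-subunit genes, 9, 4, 8 and 8 had one (27.3%, 12.1%, 24.2% and 24.2%). All these shares lay below those of all protein-coding genes given above. No share of matched genes was computed for either subunit, so the subunits cannot be compared at equal length and GC content.

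**Figure D4:**
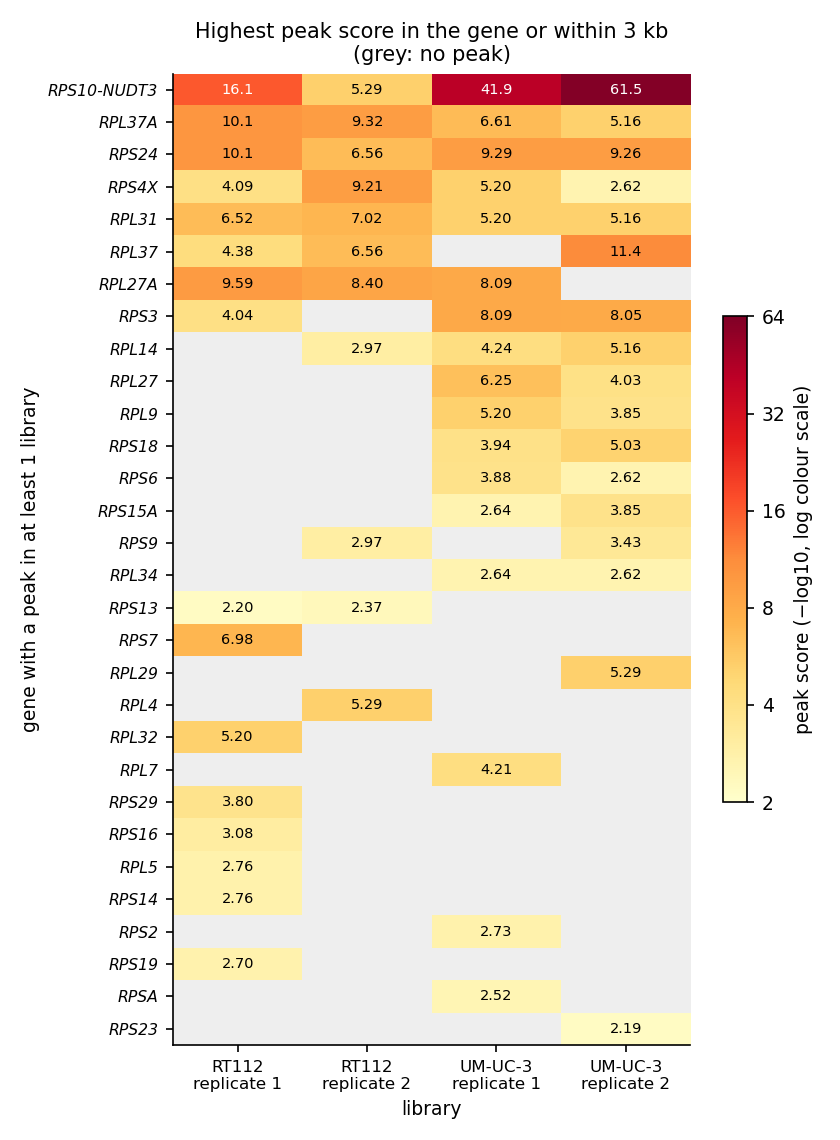
Highest score of a gene-window peak (colour and printed value, a −log10 p or q, log colour scale) for the 30 ribosomal protein genes with a peak (y axis) in each of the 4 libraries (x axis). Grey fields mark no peak, and scores above 16 are seen at RPS10-NUDT3, with 41.9 and 61.5 in UM-UC-3.

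RPL31, a protein of the large subunit near the exit of the nascent chain, was the 1 member with a peak within 3 kb of its TSS in all 4 libraries. That is 1.20% of the members, near the 0.747% of other genes and 1.21% of genes of the same length and GC class. The gene lies on the plus strand at chr2:101618691-101640494, and the peak began 2168 to 2171 bp downstream of its TSS, on an exon that is untranslated in at least 1 annotated transcript. It spanned chr2:101620859-101621098 in RT112 replicate 1 and chr2:101620860-101621132 in both UM-UC-3 replicates. Its score, on the −log10 scale of the peak caller's p or q, was 3.12 and 2.62 in RT112 replicates 1 and 2, and 5.20 and 3.999 in the UM-UC-3 replicates. These scores were higher than those of 30.8%, 5.13%, 68.1% and 51.7% of the peaks of each library or equal to them, so that the RT112 replicate 2 peak was near the floor of its list. Another peak 14.7 kb downstream, in an intron that TBC1D8 also covers, scored 6.52 and 7.02 in RT112, with 5.16 in UM-UC-3 replicate 2.

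RPS18, in the head of the small subunit, had the member peak nearest to a TSS. It lay 441 bp downstream, over a coding exon at chr6:33240293-33240551 in both UM-UC-3 replicates, with scores of 3.94 and 5.03. A peak 1786 bp upstream, inside the neighbouring gene VPS52, scored 3.06 and 2.00 in the same libraries. In RT112 the nearest peaks to this TSS were 36.9 and 40.8 kb away. RPL9, a large-subunit protein, had a peak 1393 bp downstream of its TSS that scored 5.20 and 3.85 in UM-UC-3, and its nearest RT112 peaks were 40.0 and 95.0 kb away.

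The middle 30 bases of the UM-UC-3 replicate 1 peaks at these 3 genes are shown because they are the sites nearest to these TSSs that both replicates of a cell line had. They are plus-strand GRCh37 sequence from chr2:101620981-101621010, chr6:33240407-33240436 and chr4:39459009-39459038, and capitals mark bases within a word of 32 bases that occurs more than once in the genome. The whole RPL31 peak held no such base, whereas the RPS18 peak held 101 of 259 and the RPL9 peak 49 of 269.
RPL31: ttgcagagagaggaagcttggcaggatctg
RPS18: TCTAGTGATCCCTGAAAAGTTCCAGCATAT
RPL9: acatgttgtacccatctggtctttgctctc

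A further 10 members had a TSS peak in 1 replicate of a cell line. The share of all genes with this pattern was not computed, so the count cannot be read as a trait of the members. With the 3 genes above, 13 members (15.7%) had a TSS peak in at least 1 library. The share was 24.5% of other genes and 27.8% of genes of the same length and GC class. In RT112 these were RPL4, RPS16, RPL32, RPL37 and RPS4X, and in UM-UC-3 RPS2, RPSA, RPL29, RPL34, RPS23 and RPS4X. Their scores lay between 2.19 (RPS23) and 5.29 (RPL4 and RPL29). The RPL32 peak, with a score of 5.20 in RT112 replicate 1, was the 1 member peak that overlapped a small nucleolar RNA. In all, 30 members hold 63 such RNA genes. No expected number of overlaps was computed, so this count cannot be read as low or high.

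**Figure D5:**
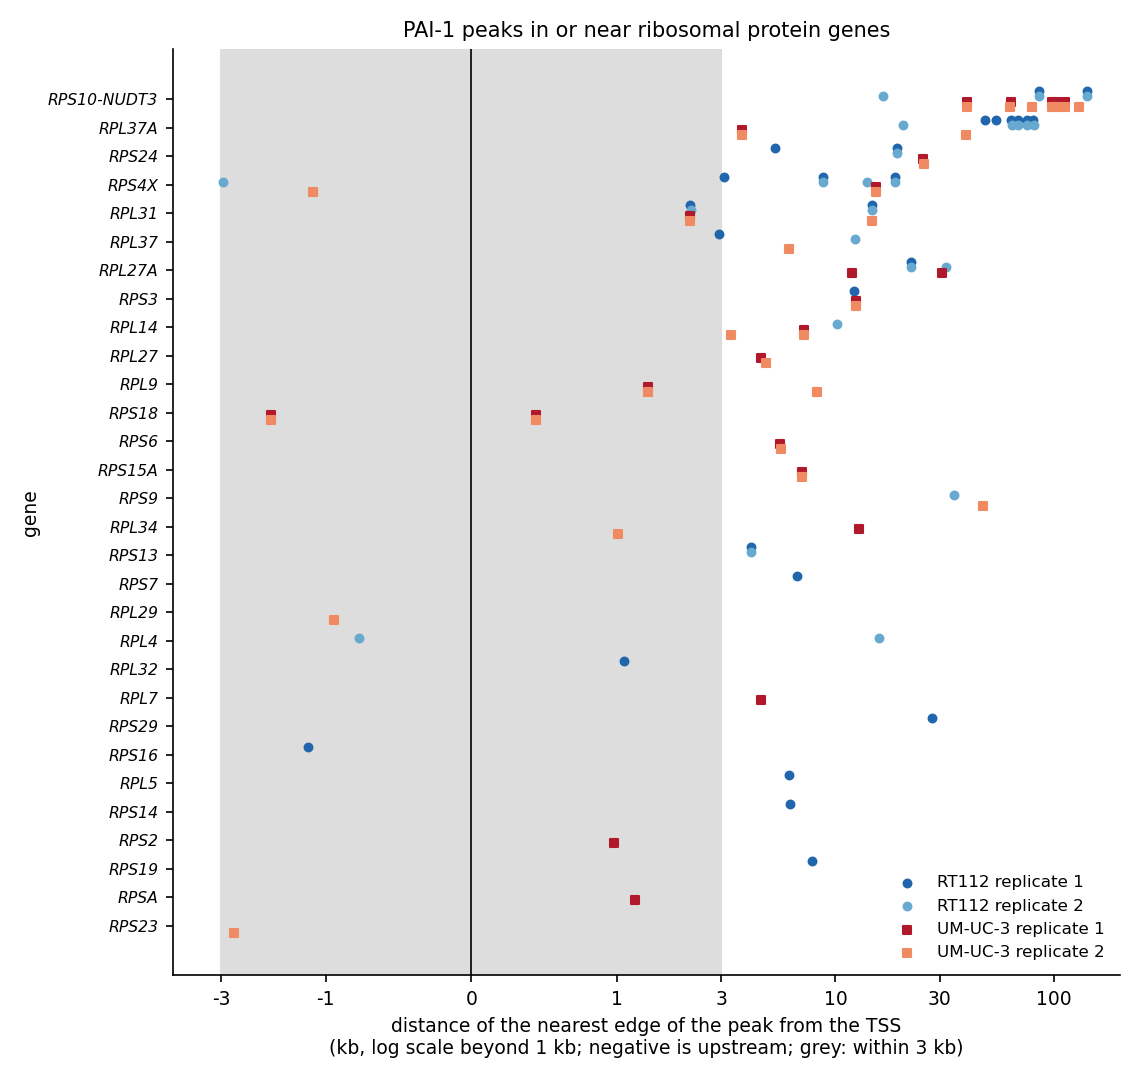
Position of each peak in or within 3 kb of a ribosomal protein gene, as the distance of its nearest edge from the TSS in kb (x axis, log scale beyond 1 kb, negative upstream, grey within 3 kb) for the 30 genes with a peak (y axis). RT112 replicates are circles and UM-UC-3 replicates squares; RPL31 has a peak 2.17 kb downstream in all 4 libraries, and the peaks of RPL37A and RPS10-NUDT3 lie up to 81.2 and 141 kb downstream.

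The highest scores belonged to peaks far from the start. At RPS10-NUDT3 a peak at chr6:34291122-34291466 scored 41.9 and 61.5 in UM-UC-3 replicates 1 and 2, above at least 99.9% of the peaks of each list. It lies 102382 bp from the TSS in an intron that the read-through gene shares with NUDT3, a gene for a diphosphoinositol polyphosphate phosphatase. RT112 had no peak there, and its highest score in this gene was 16.1 and 5.29 in replicates 1 and 2, at a peak 85.5 kb from the TSS in another part of NUDT3. RPS10 itself, the small-subunit gene at the start of the read-through, had no peak in any library.

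RPS24 gave its peaks at different places in the cell lines. In RT112 an intronic peak 19.1 kb downstream of the TSS scored 10.1 and 6.56, and in UM-UC-3 a peak 25.1 to 25.4 kb downstream, past the end of the gene, scored 9.30 and 9.26. RPL37A, annotated over 80356 bp, likewise had its best RT112 peaks 63.8 and 64.2 kb from the TSS, with scores of 10.1 and 9.32, and its best UM-UC-3 peaks 3.72 kb from it, with scores of 6.61 and 5.16. RPS4X, the X-linked small-subunit gene, shares most of its span with PIN4, a peptidyl-prolyl isomerase gene. Its best scores were 4.09 and 9.21 in RT112, against 5.20 and 2.62 in UM-UC-3, again at different positions in the cell lines.

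RPS3, at the entry of the messenger RNA channel, had an intronic peak 12.5 kb downstream in both UM-UC-3 replicates (8.09 and 8.05) and a separate one next to it in RT112 replicate 1 (4.04). RPL27A had an intronic peak 22.1 kb downstream in both RT112 replicates (9.59 and 8.40), where DENND2B lies as well. The sequence of the RPS3 peak is given whole as the strongest intronic site that UM-UC-3 replicates shared at a gene for 1 ribosomal protein, from chr11:75123027-75123284 of UM-UC-3 replicate 1 on the plus strand of GRCh37, with the same meaning of capitals.
RPS3: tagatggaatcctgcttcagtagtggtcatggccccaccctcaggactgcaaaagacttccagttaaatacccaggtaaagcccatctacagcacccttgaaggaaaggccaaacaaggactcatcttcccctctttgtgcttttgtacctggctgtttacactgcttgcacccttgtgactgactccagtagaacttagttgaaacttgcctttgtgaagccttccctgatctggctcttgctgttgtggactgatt

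No base of the RPS3 peak lay in a repeated word of 32 bases. Over all member peaks the median share of words found once was 100%, 100%, 85.5% and 98.9% in the order of the libraries, and 4, 2, 3 and 4 peaks had less than 50% such words.

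Other members with a peak in both replicates of a cell line mostly had it several kb from the start. RPL27 had overlapping peaks 4.55 and 4.81 kb downstream of its TSS in UM-UC-3, with scores of 6.25 and 4.03, of which the replicate 1 peak reached a coding exon. RPS15A had a peak over a coding exon 6.99 kb downstream (2.64 and 3.85), and RPL14 one over an untranslated exon 7.16 kb downstream (4.24 and 5.16), in UM-UC-3. RPL34 had its UM-UC-3 peaks at different places, 12.8 kb downstream in replicate 1 (2.64) and 1.01 kb downstream in replicate 2 (2.62), so that no single site was shared. RPL37 likewise had separate peaks 2.92 and 12.3 kb downstream in RT112 (4.38 and 6.56), and its highest score was 11.4 in UM-UC-3 replicate 2. RPS13 had a peak in its downstream flank in both RT112 replicates, with the low scores of 2.20 and 2.37.

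Peaks in 1 library alone were found at RPS7 (6.98), RPS29 (3.801) and RPS16 (3.08) in RT112 replicate 1, and at RPL7 (4.21) and RPS2 (2.73) over coding exons in UM-UC-3 replicate 1. RPS9 had a peak in RT112 replicate 2 (2.97) and a different one in UM-UC-3 replicate 2 (3.43). Among the 53 members without a peak in any library were RPL3, RPL6, RPL8, RPL15, RPL18, RPL19, RPL23, RPL30 and RPL35 of the large subunit and RPS3A, RPS12, RPS15, RPS20 and RPS25 of the small subunit, as well as the stalk proteins RPLP1 and RPLP2 and the read-through genes RPL17-C18orf32 and RPL36A-HNRNPH2. RPS4Y1 and RPS4Y2 on chromosome Y were among them too.

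Some members were named for their known roles whatever their values. RPLP0 of the ribosomal stalk, RPL11, RPS26, RPL10, RPL13A and the ubiquitin fusion gene RPS27A had no gene-window peak in any library. RPL5 (score 2.76), RPS19 (2.70) and RPS14 (2.76), whose loss marks a myelodysplastic syndrome, each had 1 peak, in RT112 replicate 1, whereas RPS24 had the stronger peaks given above. RPSA, which also serves as the laminin receptor, had 1 peak in UM-UC-3 replicate 1 with a score of 2.52. RPS6, the substrate of the S6 kinases, had a peak in the downstream flank that scored 3.88 and 2.62 in UM-UC-3.

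The peaks of the members were compared with those of the whole lists. The members' windows held 26, 23, 23 and 29 distinct peaks in the order of the libraries, with median scores of 3.801, 4.09, 4.21 and 3.85 where the whole lists had 3.801, 4.09, 3.88 and 3.85. Of these peaks 12, 12, 16 and 16 overlapped a peak of the other replicate (46.2%, 52.2%, 69.6% and 55.2%, against 38.2%, 61.4%, 74.5% and 71.2% of peaks at other genes), and 10, 12, 9 and 12 lay over another gene as well. Most were in introns (14, 13, 9 and 12) or exons (8, 5, 10 and 9), and few in the upstream flank (1, 2, 1 and 4) or the downstream flank (3, 3, 3 and 4). Locations of peaks at other genes were not counted.

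Other genes of the translation apparatus were taken from lists chosen for their function. Within 3 kb of the TSS, 8, 3, 6 and 9 of 78 mitochondrial ribosomal protein genes had a peak in the order of the libraries, with MRPL37 in all 4, against 10.9%, 7.41%, 13.7% and 14.5% of matched genes (10.3%, 3.85%, 7.69% and 11.5% of the list). For 44 translation factors and associated genes the counts were 1, 1, 3 and 3, with EIF4E, EIF1 and EIF5B in 2 libraries each. These are 2.27%, 2.27%, 6.82% and 6.82% of the translation factors, against 10.2%, 6.85%, 12.8% and 13.4% of genes of the same length and GC class, so that a low TSS share was also seen outside the ribosomal protein genes. For 56 ribosome biogenesis genes they were 5, 2, 5 and 7, with EBNA1BP2 in 3 libraries and NOP56 in 2, or 8.93%, 3.57%, 8.93% and 12.5% of the list against 10.3%, 6.73%, 12.4% and 13.2% of matched genes. Over the whole gene and 3 kb, mitochondrial ribosomal proteins had a peak in 38.5%, 28.2%, 38.5% and 38.5%, against 40.4%, 30.6%, 44.6% and 45.6% of genes of the same length and GC class. Biogenesis genes had a peak in 55.4%, 35.7%, 48.2% and 53.6%, against 50.5%, 40.0%, 54.3% and 55.0%. Translation factors had a peak there in 36.4%, 25%, 47.7% and 47.7%, against 45.7%, 35.6%, 50.6% and 52.1%. No test was made between the lists.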

How the data were processed

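ChIP-seq peak lists of 2 RT112 and 2 UM-UC-3 PAI-1 libraries were analysed, with groups and replicate numbers from the sample labels. Per the methods of the study and the processing notes, the authors mapped reads to hg19 with Bowtie 1.1.1, removed duplicates with Picard and called peaks with MACS2 2.1.0.20140616, and FastQC and Trimmomatic are named as well. An FDR limit stands in a figure legend about bound probe sets, and its link to the threshold of these lists is not stated. The control used in peak calling and whether reads of replicates were pooled are not given in the sources used here. The deposited score was taken for a −log10 p-value or q-value (which of them is not said in the lists), and the lowest one in a list was 2.00 to 2.01. The study gives only an average number of reads for the libraries. Without counts in the lists, the depth of a single library is unknown, and counting intervals cannot be given.

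Identical intervals were merged, keeping the highest score, and positions are 1-based on GRCh37. Genes, the TSS (the 5′ end of the gene model) and exons came from GENCODE 44 lifted to that build. An overlap of 1 bp counted, and a distance is that of the nearest edge of a peak. The matched share is the mean, over members, of the share of other genes in the same quantile class (10 of length with 10 of GC content, or 20 of one alone). The 2 cell lines were compared with an exact permutation test over libraries, two-sided. Nothing says whether replicates came from separate cultures beyond the word biological in the labels. The procedures were tested on simulated data. Python 3.11.15, numpy 2.4.6, pandas 2.3.3, scipy 1.17.1 and matplotlib 3.10.9 were used.

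The members, the related lists and the comparisons were chosen with earlier results of these data known. Genes named with values were those with a TSS peak in both replicates of a cell line or a peak in the gene window in all 4 libraries, and a set named whatever its values (RPSA, RPLP0, RPL5, RPL11, RPS19, RPS26, RPL10, RPS6, RPL13A, RPS27A, RPS4X and RPS14). RPS3, RPL27A, RPL32, RPS10, RPS13 and the other genes named with a pattern of libraries were chosen after their values were seen. In the symbol rule a closing L was read as a suffix after the number, since the literal reading would drop the 7 genes RPL3 to RPL9. Alternatives concerned the score, the overlap between replicates, the windows, the matching, the members and the replicate numbers.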

Additional observations from a re-analysis of the deposited data

How the results depend on the processing

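In all 22 alternatives computed for the gene window, the share of ribosomal protein genes stayed below that of the reference genes. The same held in all 22 for the TSS window. These counts take each cell line separately, and the alternatives are not independent. Some left out a library and only repeat the ratio of the remaining library, so their outcome was fixed beforehand. Others changed the reference to length alone, GC content alone or the nearest genes. Of 70 settings of shares and ratios that left out no library, 54 moved a value by more than the SD of the replicates and 16 did not. Each SD is of n = 2. It was 0.0 for the UM-UC-3 share in the gene window, so any change of that share counted as moved. Values are given for RT112 first and then UM-UC-3. Shares are of the members unless said otherwise, and ratios are to genes of the same length and GC class. The cause of each shift was not tested.

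With only peaks of a score of at least 5, 9.04% and 10.8% had a peak in the gene window (RT112 ratio 0.717) and 1.20% and 2.41% in the TSS window (RT112 ratio 0.276), while 1.62% and 3.31% of the pseudogenes had one. With only peaks found in the other replicate, the gene window gave 8.43% and 14.5% (ratios 0.561 and 0.540), the TSS window 1.20% and 3.61% (0.229 and 0.331), and the coverage ratios fell to 0.235 and 0.496. Midpoints in place of any overlap gave 19.9% in UM-UC-3 for the gene window (ratio 0.594) and 3.01% in RT112 for the TSS window (0.320).

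The gene alone gave ratios of 0.738 and 0.699, with 15.7% in UM-UC-3, and a flank of 10 kb gave 30.7% and 34.3%, with ratios of 0.697 and 0.617. A TSS window of 1 kb gave 0.602% and 2.41% (0.241 and 0.621), and the TSS of any transcript 7.83% and 10.8% (RT112 ratio 0.516). Pseudogenes without flanks gave 2.55% and 3.41%. Classes of length alone gave ratios of 0.722 and 0.663 in the gene window and 0.530 and 0.589 at the TSS, classes of GC content alone 0.356 and 0.378, and 0.537 and 0.587, and the 10 nearest genes 0.367 and 0.406, and 0.718 and 0.668. Without read-through genes and RPS19BP1 the UM-UC-3 gene window gave 20.3% (0.617) and the RT112 TSS ratio was 0.461. The literal reading of the symbol rule, chosen after seeing the data, gave 20.4% in UM-UC-3 for the gene window.

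The difference between the cell lines kept its sign in every alternative. Leaving out 1 library gave 1.20 to 7.23 percentage points for the gene window, the highest without RT112 replicate 1 and the lowest without RT112 replicate 2, and 1.81 to 4.22 for the TSS window, with the lowest without UM-UC-3 replicate 2. With libraries of the same replicate number paired as a block, the differences were 4.22 and 3.01 points, with exact permutation p = 0.5, the smallest that 2 pairs allow. Nothing in the labels makes equal numbers a pair: replicate 1 minus replicate 2 was 6.02 points in RT112 and 0.0 in UM-UC-3 for the gene window, and 1.20 and -2.41 for the TSS window. The lists give no read depth, so weak sites cannot be told from absent ones.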

Other observations

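Processed pseudogenes of ribosomal protein genes, which are intronless copies made by reverse transcription of the messenger RNA and are spread over the genome, carried peaks at about the share of other such copies. Of 1509 processed pseudogenes named after a ribosomal protein gene, 97 (6.43%) and 54 (3.58%) had a peak within them or 500 bp in RT112 replicates 1 and 2, and 111 (7.36%) and 117 (7.75%) in UM-UC-3 replicates 1 and 2. Other processed pseudogenes of the same length and GC class had a peak in 5.99%, 3.70%, 6.68% and 7.27%. Within the pseudogene alone, without its flanks, 49, 28, 49 and 54 had a peak. These are 3.25%, 1.86%, 3.25% and 3.58%, against 2.85%, 1.65%, 3.58% and 3.66% of the matched set. Both UM-UC-3 libraries thus lay below the matched share without flanks and above it with them. The copies thus differed little from their matched set, whereas the parent genes had a peak within 3 kb of the TSS at 0.420 to 0.557 times the share of matched genes; the difference between these results was not tested, and the windows differ in size.

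Of 9 paralogs with an L after the number, RPL39L had a TSS peak in 2 libraries and RPL10L in 1, and the other genes of that list, among them the kinase-like RPS6KL1, in none. In the order of the libraries the TSS shares of the list were 11.1%, 0.0%, 11.1% and 11.1%. Genes of the same length and GC class had 12.5%, 7.12%, 14.9% and 16.1%. In the gene or within 3 kb, 3, 1, 2 and 2 of these 9 had a peak in the order of the libraries. These are 33.3%, 11.1%, 22.2% and 22.2%, against 34.4%, 25.95%, 40.2% and 41.6% of matched genes. Of the 44 translation factors, 16, 11, 21 and 21 had a peak in that window, with shares set beside those of matched genes above.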
